A study of Mus musculus with 2 samples.

Results

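Tmem176a, Tmem176b, Serpinb1a, Il17a and Il23r are 5 genes associated with interleukin-17-producing CD4 T cells (Th17 cells), and they are described here in CD4 T cells of fat and spleen. They were chosen by symbol, and each symbol stood for 1 gene among the 55487 genes in the matrices. Cells came from 3 fat depots, brown (BAT), subcutaneous (SAT) and visceral (VAT), and from the spleen of untreated wild-type (WT) male C57BL/6J mice aged 8 weeks. Live cells positive for TCRb, CD3 and CD4 were sorted, marked with hashtag antibodies and read by droplet-based RNA sequencing of transcript 3′ ends. There were 2 libraries, 1 per experiment, each of 8 hashed samples, so that every tissue had 4: replicates 1 and 2 from experiment 1, and replicates 3 and 4 from experiment 2. Fat was digested with collagenase II and spleen was broken up by mechanical means only, so that tissue and digestion cannot be told apart in any comparison of fat with spleen. The labels call the paired samples of an experiment biological duplicates without saying whether they were separate animals, so the p-values measure only the spread between these samples.

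Th17 cells are helper T cells of barrier tissues that secrete interleukin 17A, the product of Il17a, which calls in neutrophils. Il23r encodes the subunit that makes the interleukin 23 receptor specific; signalling through it, with the shared subunit Il12rb1 and the kinases Jak2 and Tyk2, stabilises the Th17 state. Tmem176a and Tmem176b encode a pair of intracellular membrane proteins of the MS4A-like family that are known from dendritic cells as well as from lymphocytes that make interleukin 17, and Serpinb1a encodes an intracellular inhibitor of serine proteases that is also abundant in neutrophils.

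Tmem176a (ENSMUSG00000023367.14, plus strand) lies at chr6:48840919-48847071 and Tmem176b (ENSMUSG00000029810.15, minus strand) at chr6:48833818-48841496 of mm10, so the neighbours overlap by 578 bases at their 5′ ends on opposite strands. Whether counting used strand is not given in the sources used here, and the 3′ ends of both genes, which this assay reads, lie outside the overlap. In RefSeq's table of GRCm38.p6 promoters, which held 4 of the 5 genes, the first listed starts of Tmem176a and Tmem176b were 346 bases apart, and their 250 bases upstream shared 155 bases. Serpinb1a (ENSMUSG00000044734.16) lies at chr13:32842092-32851185 on the minus strand. Il17a (ENSMUSG00000025929.4) lies at chr1:20730905-20734496 on the plus strand, and Il23r (ENSMUSG00000049093.9) at chr6:67422932-67491855 on the minus strand. All 5 are annotated as protein coding in GENCODE vM21.

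The 250 bases upstream of Il17a (chr1:20730655-20730904, plus strand) and of Il23r (chr6:67491856-67492105, minus strand) are shown because these genes encode the cytokine and the receptor subunit that define Th17 cells. Capitals mark the AP-1 motif TGANTCA, searched on both strands; Batf, a factor that Th17 cells need, binds such sites together with Jun proteins.
Il17a: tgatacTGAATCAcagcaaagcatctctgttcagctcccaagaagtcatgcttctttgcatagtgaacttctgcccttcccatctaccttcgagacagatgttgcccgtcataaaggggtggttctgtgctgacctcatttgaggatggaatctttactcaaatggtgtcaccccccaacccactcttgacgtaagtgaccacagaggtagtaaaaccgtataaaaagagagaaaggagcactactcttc
Il23r: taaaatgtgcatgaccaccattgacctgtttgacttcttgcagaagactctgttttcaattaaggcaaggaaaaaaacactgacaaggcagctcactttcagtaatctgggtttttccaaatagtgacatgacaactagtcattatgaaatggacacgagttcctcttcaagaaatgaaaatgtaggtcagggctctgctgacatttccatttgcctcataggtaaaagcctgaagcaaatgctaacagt
TGAATCA began 244 bases upstream of the Il17a start, and the Il23r window held no match. Of 32851 windows of this length in the table, 6.75% held TGANTCA, so a match describes letters and not a binding site. The 5 windows of Tmem176a and Tmem176b held neither this motif nor the STAT motif TTCNNNGAA, which 7.02% of windows held.

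After filters, 3985 and 9004 cells remained in experiments 1 and 2, with medians of 6107 and 4306.5 UMIs, and 3843 and 8898 of them passed the T cell gate. Hashtags placed 9724 T cells in 1 sample, of which 642 had at least 1 UMI of Foxp3, the master regulator of regulatory T cells (Foxp3-positive), and 9082 had none (Foxp3-zero). A Foxp3-zero cell may still be a regulatory T cell whose Foxp3 was missed. Cells carrying hashtags of several samples made up 7.45% and 13.4% of cells, and 20 barcodes were found in both libraries. T cell receptor and CD3 genes were found in 60.8% to 98.1% of T cells, Cd4 in 53.1%, Cd8a in 0.422% and Cd8b1 in 4.86%. The hashtag of SAT replicate 1 stood only 1.97 robust standard deviations above its background and that of BAT replicate 4 only 3.13, so that stricter calls kept 8.83% and 55.1% of their T cells.

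In Foxp3-zero T cells all 3 readable genes were highest in VAT, next in SAT, and low in BAT and spleen. Levels are in CPM, the UMIs of a gene per 1000000 UMIs, summed over the cells of a hashed sample, where fewer positive cells and less RNA per cell cannot be told apart. Tmem176b had 4.17, 4.52, 7.18 and 3.06 CPM in BAT, 12.2, 9.91, 14.1 and 14.1 CPM in SAT, 36.4, 37.2, 34.6 and 37.2 CPM in VAT, and 5.08, 4.34, 1.74 and 3.43 CPM in spleen. Every VAT sample lay above every SAT sample, every SAT sample lay above the samples of the other two tissues, and BAT and spleen overlapped. Tmem176a had 1.52, 4.97, 6.53 and 2.62 CPM in BAT, 10.2, 9.39, 10.9 and 8.73 CPM in SAT, 24.1, 37.2, 24.1 and 30.7 CPM in VAT, and 2.77, 2.76, 3.48 and 3.43 CPM in spleen. It followed the same order, with BAT again overlapping spleen on both sides.

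Serpinb1a had 0.759, 4.97, 1.31 and 1.31 CPM in BAT, 5.44, 4.17, 5.45 and 6.68 CPM in SAT, 11.5, 11.2, 8.99 and 11.5 CPM in VAT, and 0.924, 0.394, 0.745 and 0.214 CPM in spleen. VAT stood above SAT in every sample, BAT replicate 2 reached into the SAT range, and the spleen values came from 1 to 3 UMIs a sample, 7 UMIs in all against 132 in VAT. Means ± SD over 4 samples were 2.09 ± 1.94 CPM in BAT, 5.43 ± 1.02 CPM in SAT, 10.8 ± 1.21 CPM in VAT and 0.569 ± 0.323 CPM in spleen.

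**Figure D1:**
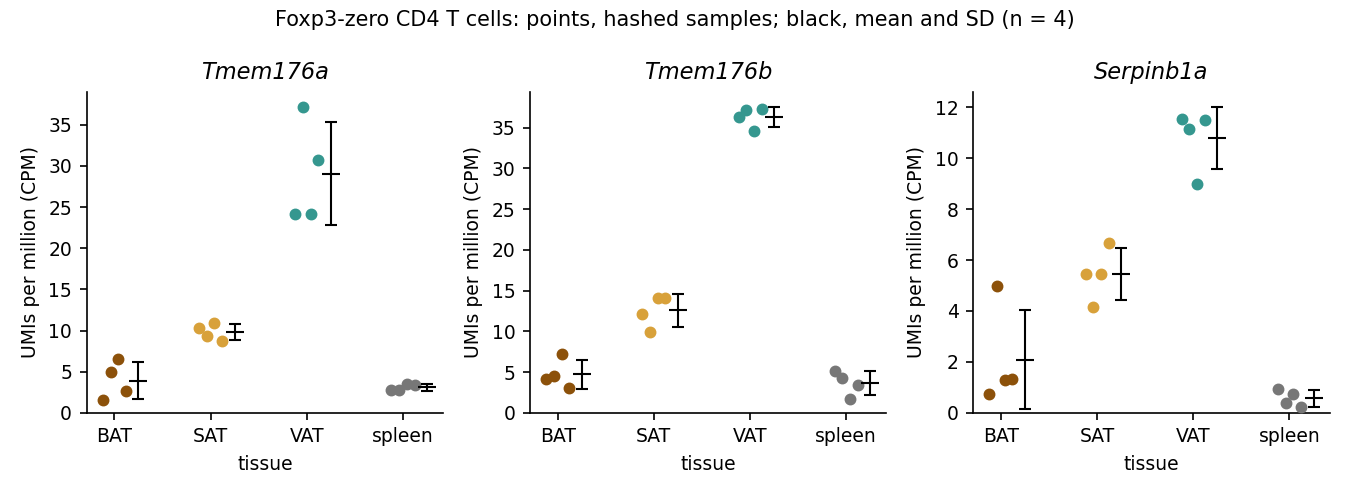
CPM of Tmem176a, Tmem176b and Serpinb1a (vertical axes, linear from 0) in Foxp3-zero T cells of BAT, SAT, VAT and spleen; each point is a hashed sample and black marks are the mean and SD (n = 4). VAT samples sit highest for all 3 genes, at 34.6 to 37.2 CPM for Tmem176b, against 1.74 to 5.08 CPM in spleen.

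Tissue pairs were tested with edgeR's quasi-likelihood test in 1 fit over 10525 genes, with Benjamini-Hochberg adjustment, an experiment term and a threshold of adjusted p under 0.05. Of the 5 genes, 3 passed the filter on low counts and Il17a and Il23r did not. Serpinb1a passed it mainly through the SAT and VAT sums, where it is high. Its calls against spleen and BAT are therefore not read as support, and only the sizes are used. In VAT over spleen 37.8% of all tested genes were called, Tmem176a and Tmem176b among them. The log2 fold changes of Tmem176a, Tmem176b and Serpinb1a were 3.07 (SE 0.23), 3.34 (SE 0.20) and 4.17 (SE 0.42). For Tmem176a and Tmem176b the adjusted p-values were 3.2e-10 and 6.2e-12 by edgeR. In SAT over spleen 41.5% of genes were called. There the same 3 genes rose by 1.48 (SE 0.28), 1.79 (SE 0.24) and 3.19 (SE 0.48) on the log2 scale. For Tmem176a and Tmem176b the edgeR adjusted p was 1.6e-04 and 1.6e-06. With shares of that size called over all genes, these calls say little in themselves, and the sizes are the measurement. Over all tested genes the log2 fold changes had a median of 0.00 in VAT over spleen and -0.01 in SAT over spleen.

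In BAT over spleen none of the 3 genes passed the test. There 9.42% of all genes were called, and the 3 genes were at log2 fold changes of 0.36 for Tmem176a (95% interval -0.34 to 1.05, edgeR adjusted p = 0.634), 0.56 for Tmem176b (-0.03 to 1.16, adjusted p = 0.292) and 1.85 for Serpinb1a (0.67 to 3.04, adjusted p = 0.0566). The Serpinb1a value rested on BAT replicate 2 in part: without that sample it was 1.05, and without BAT replicate 1 it was 2.12. The latter was called (adjusted p = 0.0271, edgeR), which is not read as support either. All 3 genes were lower in BAT than in the other fat depots. In BAT over SAT, with 34.7% of genes called, they fell by 1.13 for Tmem176a, 1.23 for Tmem176b and 1.33 for Serpinb1a on the log2 scale. In BAT over VAT, with 30.9% called, they fell by 2.71, 2.78 and 2.31. Tmem176a and Tmem176b passed the threshold in both pairs. For Serpinb1a only the sizes are used, for the reason given above.

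SAT over VAT is the pair in which few genes moved, 4.44% of those tested, and all 3 genes were among them. Both depots were digested with collagenase II. Tmem176a fell by 1.59 (SE 0.19, edgeR adjusted p = 2.2e-05) and Tmem176b by 1.54 (SE 0.16, adjusted p = 1.8e-06) on the log2 scale. Serpinb1a fell by 0.98 (SE 0.27, adjusted p = 0.0414 by edgeR), but this call was lost on leaving out any single SAT or VAT sample or spleen replicate 2, at adjusted p up to 0.151 and log2 values between -1.14 and -0.88. It was also lost in each experiment alone, at -1.23 and -0.80, while Tmem176a and Tmem176b kept their calls in each.

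**Figure D2:**
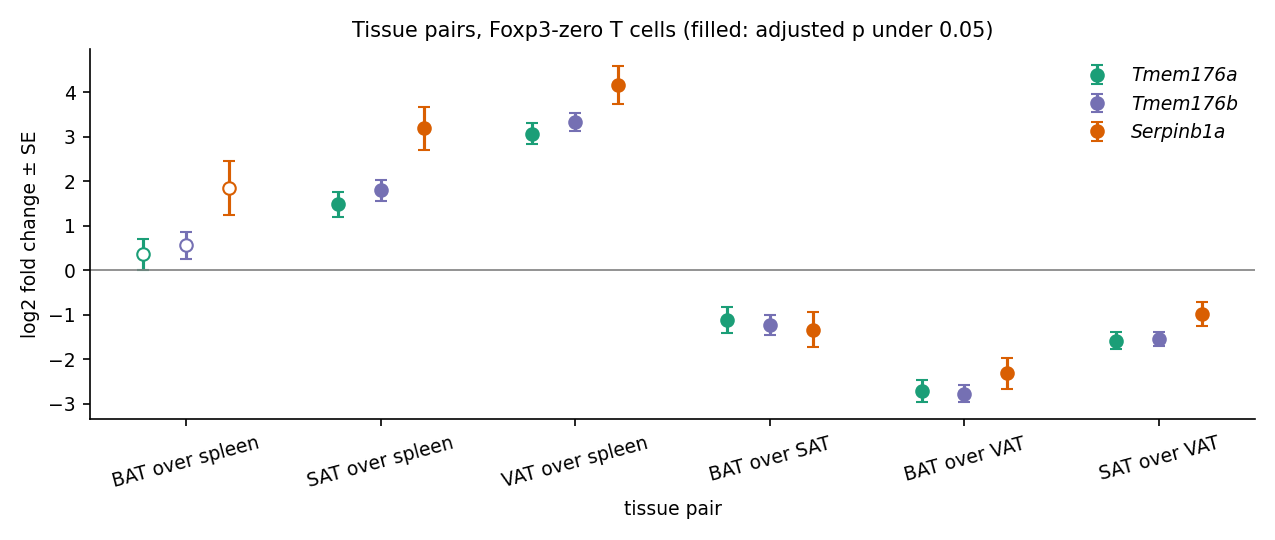
Log2 fold changes with SE (vertical axis) of the 3 testable genes in each of 6 tissue pairs of Foxp3-zero T cells, from edgeR; filled points passed adjusted p under 0.05. The BAT over spleen points are open, and the SAT over VAT values for Tmem176a and Tmem176b are -1.59 and -1.54.

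The Tmem176 genes kept a similar ratio in all tissues. Of the UMIs of both genes together, Tmem176b gave 54.9% in BAT cells, 56.9% in SAT cells, 56.2% in VAT cells and 51.1% in spleen cells, with exact 95% binomial intervals that overlap; these intervals cover counting error only. Cells with a UMI of either gene (Tmem176-positive) numbered 49 of 2153 in BAT (2.28%), 93 of 2335 in SAT (3.98%), 204 of 2219 in VAT (9.19%) and 52 of 2375 in spleen (2.19%). Positive cells also held more UMIs in VAT, 2.92 of Tmem176b per cell with any, against 1.25 in spleen.

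Tmem176a, Tmem176b and Serpinb1a are not exclusive to T cells, and other cells in these libraries carried them. Among 39 cells outside the gate with myeloid markers, at a median of 14652 UMIs, 59.0% had a UMI of Tmem176a and 61.5% of Tmem176b, and among 75 cells with B cell markers, at a median of 6773 UMIs, 25.3% had Serpinb1a. Within the gated Foxp3-zero cells the summed myeloid markers, 9 of 10 of them detected with Siglech at 0, stood at 2.94 to 23.5 CPM in BAT, 7.45 to 18.9 CPM in SAT, 3.72 to 15.3 CPM in VAT and 2.48 to 19.3 CPM in spleen, which overlap. Without any T cell gate, Serpinb1a in SAT over spleen was 0.92 and not called (adjusted p = 0.134, edgeR), and in BAT over spleen it was -0.14.

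Endothelial genes were counted as well, since they were found beside the Tmem176 genes. The 10 genes, all detected, form a list added after their lead among co-detected genes was seen, and summed to 46.7 to 754 CPM in BAT, 7.69 to 1181 CPM in SAT, 8.52 to 1059 CPM in VAT and 1.99 to 48.9 CPM in spleen. Each fat depot thus had samples above the spleen range, and samples within it. Most of the summed level came from Fabp4. Over all T cells with a single hashtag it stood at 193 CPM, in 5.36% of cells, and the next highest gene, Igfbp7, at 16.3 CPM. With the 116 Foxp3-zero cells that carried at least 2 of these genes left out, VAT over spleen stayed at 3.04 for Tmem176a and 3.28 for Tmem176b. Both were called (37.6% of genes called), and the size for Serpinb1a was 3.98. In SAT over VAT, where 4.53% of genes were then called, both Tmem176 genes stayed called, and Serpinb1a was -0.82 and not called (adjusted p = 0.0912, edgeR).

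Between Foxp3-positive and Foxp3-zero T cells, shares and levels of the Tmem176 genes differed by less than the spread between samples. Over all 12741 gated cells of both libraries, of which 3017 had several hashtags or none resolved, Tmem176a was found in 41 of 848 Foxp3-positive cells (4.83%, exact 95% interval 3.49 to 6.50) and in 335 of 11893 Foxp3-zero cells (2.82%, 2.53 to 3.13). Tmem176b was found in 38 (4.48%) and 386 (3.25%) of them, and Serpinb1a in 20 (2.36%) and 176 (1.48%). Median depths were 4952.5 UMIs in Foxp3-positive and 4794 in Foxp3-zero cells. In cells with a single hashtag the shares were 4.36% and 2.81% for Tmem176a, 3.89% and 3.23% for Tmem176b, and 2.49% and 1.56% for Serpinb1a. A UMI does not by itself show that a cell expressed the gene: Lyz2, a myeloid gene, had a UMI in 2.24% of T cells with a single hashtag, about the share with a Tmem176 gene in Foxp3-zero cells of BAT and spleen. The part of free RNA in these shares was not tested.

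Compared over 14 hashed samples in cells thinned to 1300 UMIs, the shares with Tmem176a were 1.49% ± 2.07 in Foxp3-positive and 1.34% ± 1.11 in Foxp3-zero cells (SD; exact sign-flip permutation test, two-sided p = 0.815, adjusted over the 5 genes to 1). Those with Tmem176b were 1.48% and 1.44% (exact permutation p = 0.896), and those with Serpinb1a 0.661% and 0.593% (exact permutation p = 0.970), where the smallest p this design can give is 0.000122. Thinning left out 5 of 642 Foxp3-positive and 253 of 9082 Foxp3-zero cells; unthinned, the shares with Tmem176a were 4.42% and 3.19% (exact permutation p = 0.261). By CPM the same held: of 7836 genes tested between the classes 18.5% were called, and of the 2 testable genes 0 were, with Tmem176a at a log2 fold change of 0.35 (95% interval -0.18 to 0.89, edgeR adjusted p = 0.440) and Tmem176b at -0.26 (-0.77 to 0.25, adjusted p = 0.572). Summed by library rather than by hashed sample, so that cells without a single hashtag enter too, Tmem176a was 0.56 and called (adjusted p = 0.0232, edgeR) and Tmem176b was 0.11.

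Genes of the wider Th17 programme did differ between the classes, and those that moved are not specific to Th17 cells. Of 16 fixed genes 8 were tested and 5 rose in Foxp3-positive cells, none fell, where 18.5% of all genes were called, with a median log2 fold change of 0.95 against -0.02 over all genes. Irf4, a transcription factor of activated T cells, rose by 1.97, Rora, a nuclear receptor of Th17 cells, by 1.30, Maf by 1.13 and Batf by 0.95. In Foxp3-zero cells Irf4 averaged 8.29 CPM in SAT, its highest tissue, and 2.53 CPM in spleen. It may therefore have passed the filter mainly through the Foxp3-positive sums. Its call, counted among the 5, is not read as support, and the median includes it. Ccr6, a chemokine receptor of Th17 cells, failed the filter and was found in 59 Foxp3-positive cells (6.96%) and 96 Foxp3-zero cells (0.807%).

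Within Foxp3-positive cells the tissue order was less certain, since each hashed sample held 15 to 67 of them. Tmem176a had 0, 0, 0 and 0 CPM in BAT, 3.31, 26.9, 0 and 13.8 CPM in SAT, 24.2, 73.2, 19.5 and 36.2 CPM in VAT, and 0, 9.92, 25.9 and 4.05 CPM in spleen. Tmem176b had 0 CPM in all 4 BAT samples, 3.31, 13.4, 10.0 and 24.2 CPM in SAT, 18.8, 69.8, 11.2 and 31.1 CPM in VAT, and 0, 6.61, 3.69 and 8.10 CPM in spleen. VAT was highest on average for both, VAT and spleen overlapped for Tmem176a but not for Tmem176b, and SAT overlapped both VAT and spleen. In BAT neither gene was seen in 82 Foxp3-positive cells, which allows a share of up to 3.66%, while 49 of 2153 Foxp3-zero BAT cells (2.28%) had one. A difference between these classes of BAT cells was therefore not detectable with 82 Foxp3-positive cells.

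**Figure D3:**
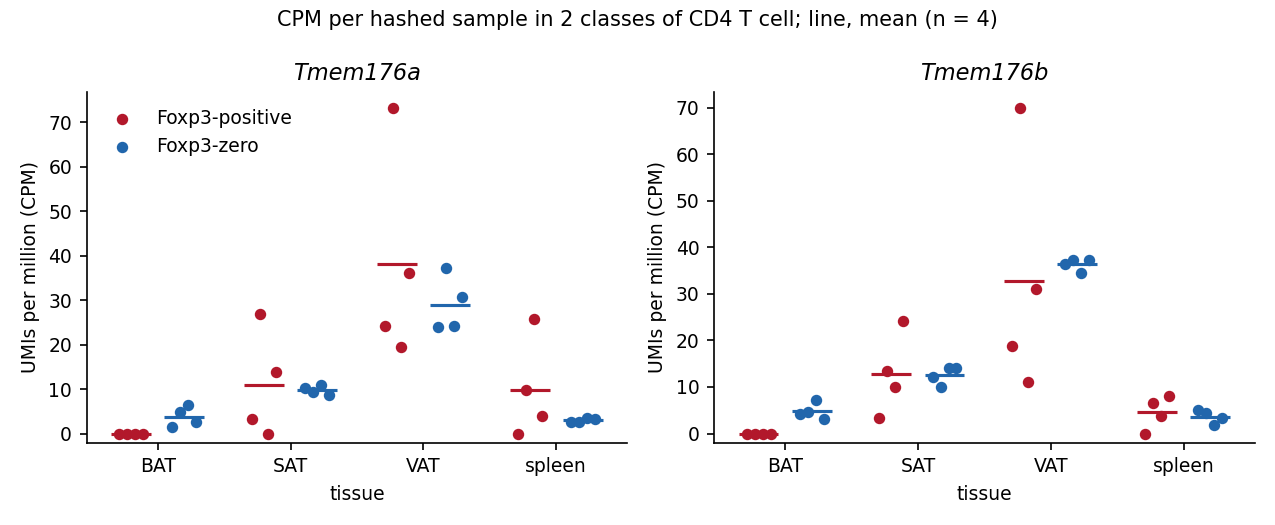
CPM of Tmem176a and Tmem176b (vertical axes, linear) in Foxp3-positive cells (red, left of each pair) and Foxp3-zero cells (blue) of each tissue; points are hashed samples and lines are means (n = 4). Foxp3-positive points scatter widely, from 19.5 to 73.2 CPM for Tmem176a in VAT, against 24.1 to 37.2 CPM in Foxp3-zero cells.

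None of the 5 genes passed the filter in the fit of Foxp3-positive cells, into which BAT entered with replicates 1 and 4. With no filter on low counts, where 3.82% of genes were called in VAT over spleen, Tmem176b was 2.52 (SE 0.59) and Tmem176a 1.68 (SE 0.48) by edgeR. Their p-values are not used, since fits without the filter gave far smaller p-values than filtered fits at similar fold changes. In the 5 alternatives in which both passed the filter, VAT over spleen lay between 2.49 and 3.28 for Tmem176b and between 1.67 and 2.88 for Tmem176a. Where BAT kept 1 sample, as without BAT replicate 1 or 4, a gene could pass the filter through a single high sum. VAT replicate 2 was such a sum, at 73.2 CPM of Tmem176a and 69.8 CPM of Tmem176b, so calls in these alternatives are not counted. Whether the tissue difference itself depended on class could not be read, since these genes entered that fit through the Foxp3-zero sums: for VAT over spleen the 95% interval of the interaction ran from -2.68 to 0.02 for Tmem176a and from -2.36 to 1.01 for Tmem176b (log2). Serpinb1a in Foxp3-positive cells amounted to 1 UMI in BAT, 3 UMIs in SAT, 14 UMIs in VAT and 5 UMIs in spleen, which is too few to order the tissues.

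Il17a and Il23r were too sparse to read by tissue or class. Il17a was found in 0 of 848 Foxp3-positive cells, which allows a share of up to 0.354%, and in 4 of 11893 Foxp3-zero cells (0.0336%). Those 4 cells held 10 UMIs: 1 cell in BAT replicate 4, 1 in SAT replicate 2, 1 with 5 UMIs in SAT replicate 3 and 1 in VAT replicate 1. No spleen cell had a UMI.

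Il23r was found in 2 Foxp3-positive cells (0.236%) and 7 Foxp3-zero cells (0.0589%). Of the Foxp3-zero cells with a single hashtag, 5 were from VAT, at least 1 in each VAT sample, and 1 was from spleen. At 0.350 to 0.621 CPM every VAT sample lay below the level that 3 counts would give, and none of BAT or SAT had a UMI, so no difference between tissues was read from it. No cell held both Il17a and Il23r.

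The share of Foxp3-zero cells with Serpinb1a was higher among those with a UMI of a Tmem176 gene, and Il17a and Il23r rested on too few cells to compare. Among the gated Foxp3-zero cells of both libraries, single hashtag or not, 536 were Tmem176-positive, at a median of 5827.5 UMIs, and 11357 were Tmem176-zero, at 4761. Serpinb1a was found in 60 Tmem176-positive cells (11.2%) and 116 Tmem176-zero cells (1.02%), Il17a in 3 and 1, and Il23r in 6 (1.12%) and 1. The Il17a cell among Tmem176-zero cells, from SAT replicate 3, held 5 of the 10 Il17a UMIs. With multi-sample and unresolved cells left out, a choice made after these shares were seen, Serpinb1a was in 49 of 398 Tmem176-positive cells (12.3%, exact 95% interval 9.25 to 15.9) and 93 of 8684 Tmem176-zero cells (1.07%, 0.865 to 1.31), Il17a in 3 and 1, and Il23r in 6 and 0.

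Other genes known from Th17 cells were counted in the same classes. Ccr6 was found in 43 Tmem176-positive cells (8.02%) and 53 Tmem176-zero cells (0.467%), and Il1r1, the interleukin 1 receptor that Th17 cells use, in 14 (2.61%) and 10. Without endothelial-marked cells Il1r1 was in 9 of 494 (1.82%) and 7, and it is not specific to T cells: it had a UMI in 4.86% of endothelial-marked cells and in 5 of 12 fibroblast-marked cells. In cells with a single hashtag Ccr6 was in 32 (8.04%) and 38 (0.438%). Il17f, the closest relative of Il17a, was in 1 and 4.

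Among Foxp3-positive cells, 59 were Tmem176-positive and 789 Tmem176-zero. Ccr6 was found in 12 (20.3%) and 47 (5.96%) of them, Serpinb1a in 3 (5.08%) and 17 (2.15%), and Il23r in 1 and 1. The intervals of the Serpinb1a shares overlap, at 1.06 to 14.1% and 1.26 to 3.43%. Median depths were 6014 UMIs in the Tmem176-positive and 4862 in the Tmem176-zero cells. In cells with a single hashtag Ccr6 was in 6 of 39 (15.4%, exact 95% interval 5.86 to 30.5) and 36 of 603 (5.97%, 4.22 to 8.17), and these intervals overlap. After thinning, no Foxp3-positive cell had both Ccr6 and a Tmem176 gene.

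**Figure D4:**
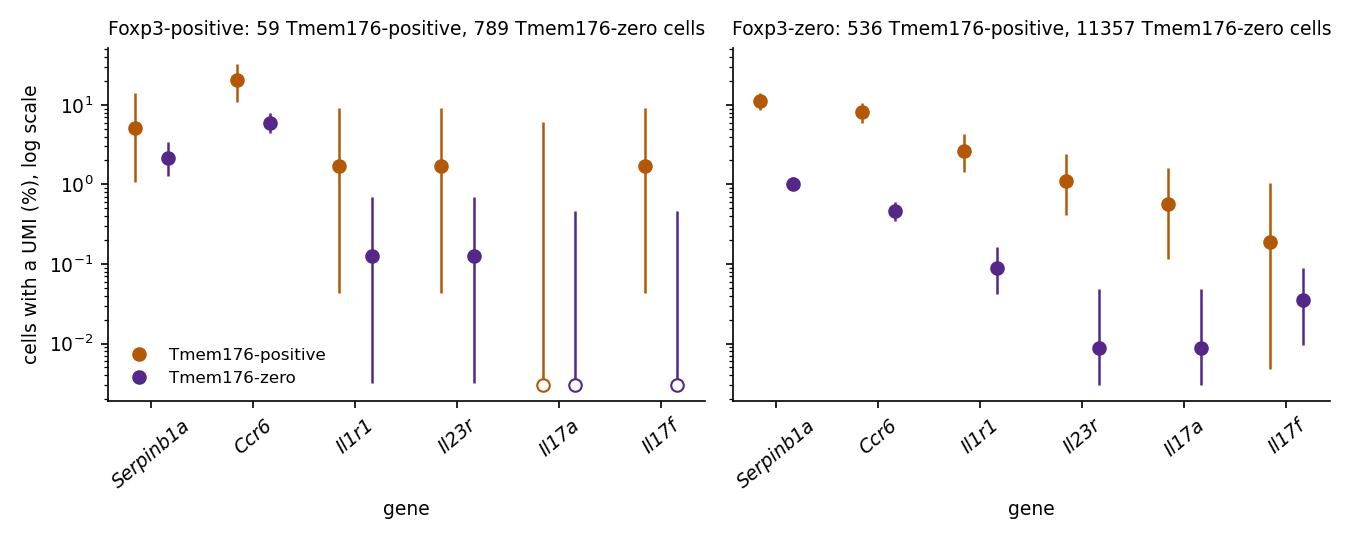
Share of cells with a UMI of each gene (vertical axis, percent, log scale) in Tmem176-positive (orange) and Tmem176-zero (purple) T cells, with Foxp3-positive cells left and Foxp3-zero cells right; bars are exact 95% intervals that end at the axis foot where they reach lower, and open points at the foot mark 0 cells. In Foxp3-zero cells Serpinb1a is at 11.2% and 1.02%, and Il17a rests on 3 and 1 cells.

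Both Tmem176 genes were detected in 185 Foxp3-zero cells: Tmem176a was found in 47.9% of cells with Tmem176b and in 1.30% of those without it. In cells thinned to 1300 UMIs these shares were 27.0% and 0.849%, and Serpinb1a was found in 8.11% of cells with Tmem176b and in 0.429% of those without. With a single hashtag the thinned shares were 33.6% and 0.815% for Tmem176a, and 10.6% and 0.402% for Serpinb1a. Among Foxp3-positive cells 20 had both Tmem176 genes, and 2 after thinning. Every thinned cell has the same number of UMIs, so the thinned shares compare cells of equal depth.

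The level of Serpinb1a was compared between Tmem176 classes within each of 15 hashed samples that had at least 10 cells in both. It averaged 29.0 ± 25.7 CPM in Tmem176-positive and 3.18 ± 2.84 CPM in Tmem176-zero cells (SD, 15 samples), and was higher in 13 of them. In Tmem176-positive cells it ran from 0 to 97.9 CPM with a median of 21.1, and in Tmem176-zero cells from 0 to 9.23 CPM with a median of 3.80, so that the classes overlapped only at the lower end of the positive class. BAT replicate 1 and spleen replicate 3 had 0 CPM in Tmem176-positive cells, from 11 and 12 cells.

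The exact sign-flip permutation test on CPM, which uses no filter, gave p = 0.000244, where the smallest possible is 6.1e-05. In edgeR's test 5.4% of 7687 genes were called, 154 higher and 261 lower; Serpinb1a passed its filter through the Tmem176-positive sums, so its call there is not used. With no filter on low counts, where 6.23% of genes were called, its log2 fold change was 2.88 (SE 0.28). Fits without the filter gave far smaller p-values than filtered fits at similar fold changes, so their p-value is not used here. The summed endothelial genes, of which Fabp4 was by far the highest over all T cells, stood at a median of 677 CPM in Tmem176-positive and 48.8 CPM in Tmem176-zero cells. At least 2 of these genes were carried by 33 of the 398 Tmem176-positive cells. With those cells left out, Serpinb1a was 25.6 ± 17.6 CPM and 3.17 ± 2.36 CPM, higher in 11 of 13 samples (exact permutation p = 0.000977, smallest possible 0.000244). It then failed edgeR's filter, in a comparison where 4.23% of genes were called.

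**Figure D5:**
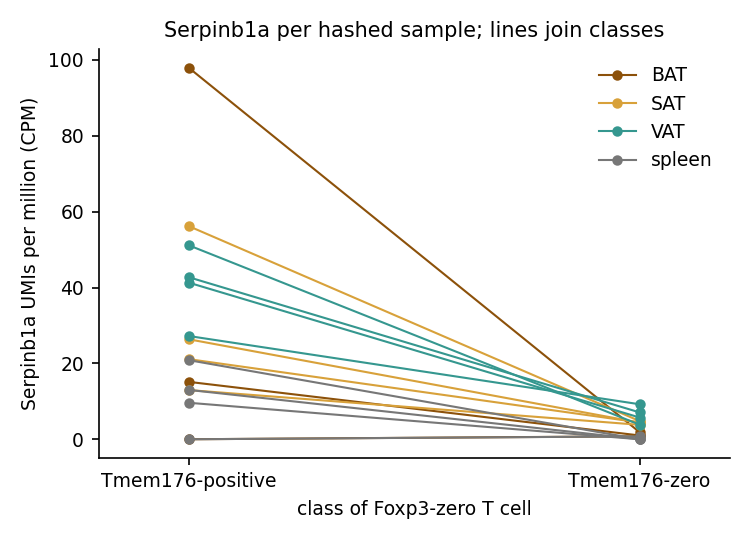
Serpinb1a in CPM (vertical axis, linear) in Tmem176-positive and Tmem176-zero cells among Foxp3-zero T cells; each line joins the classes of 1 of 15 hashed samples, coloured by tissue. The Tmem176-positive value is the higher in 13 of 15 samples, up to 97.9 CPM in BAT replicate 2, which rests on 7 UMIs.

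The 10 genes that rose most in Tmem176-positive cells were led by Sparc at 3.98 and Tcf4 at 3.08, known from endothelial cells among others, followed, after Serpinb1a, by the lipid carrier Fabp5 at 2.31. Sparc stood at 185 ± 242 CPM in Tmem176-positive and 10.1 ± 14.9 CPM in Tmem176-zero cells, and Tcf4 at 100 ± 151 and 7.85 ± 6.03 CPM (SD, 15 samples). Both may have passed the filter mainly through the Tmem176-positive sums, so their calls are not read as support. Without endothelial-marked cells neither Sparc nor Tcf4 was among the first 10. The list was then led by the interleukin 2 receptor chain Il2ra at 1.93. Il2ra stood at 38.1 ± 55.9 CPM in Tmem176-positive and 8.20 ± 3.57 CPM in Tmem176-zero cells (SD, 13 samples). Its call is not read as support, since it too may have passed mainly through the Tmem176-positive sums. The list also held the interleukin 18 receptor Il18r1 at 1.25, Rora at 1.12, the actin-capping gene Capg at 1.11 and S100a4, a gene of effector and memory cells, at 0.95. Among genes that fell was Ccr7, a chemokine receptor of naive and central memory T cells, at -1.13 with all cells. Of the 6 T cell genes 4 fell, by 0.24 for Cd3g to 0.38 for Trbc2 on the log2 scale, and none rose; without endothelial-marked cells only Trbc2 was called, at -0.25.

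Of the 16 Th17 programme genes 7 could be tested between the Tmem176 classes, where 5.4% of all genes were called, and 4 were called: Ahr, a ligand-activated transcription factor of Th17 cells, rose by 1.31 and Rora by 1.10, while the interleukin 6 receptor Il6ra fell by 0.87 and Il21r by 0.51. Ahr averaged 18.5 ± 16.4 CPM in Tmem176-positive and 6.97 ± 3.56 CPM in Tmem176-zero cells (SD, 15 samples). It may therefore have passed the filter mainly through the Tmem176-positive sums, and its call is not read as support. The list's median was 0.28, against -0.04 over all genes, and turned to -0.20, against -0.02, over the 6 genes tested without endothelial-marked cells. Of the genes named, Rora and Il6ra were still called there, Il21r was not (-0.35), and Ahr failed the filter. Of 3 testable relatives of Serpinb1a only Serpinb6a was called, at 1.10. Of the 4 testable MS4A genes, Ms4a4b and Ms4a6b fell, both by 0.29, and neither was called without endothelial-marked cells, at -0.18 and -0.17.

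Partner genes in the same tissues were looked at for the pairs with VAT. In VAT over spleen 10 of the 16 Th17 programme genes were tested, 6 rose and 3 fell, where 37.8% of all tested genes were called, with a median of 0.86 against 0.00 over all genes. Csf2, which encodes GM-CSF, rose by 4.98, Rora by 2.45, Maf by 2.18 and Ahr by 1.69, and the 3 that fell, named after their values were seen, were the interleukin 6 receptor genes Il6st and Il6ra, by 1.23 and 0.82, and Il21r, by 0.63. Csf2 ran from 3.72 to 46.8 CPM in VAT, against 0.248 to 0.462 CPM in spleen, where it rested on 5 UMIs. It passed the filter through sums of fat cells, so its call is not read as support. Ahr, at 11.9 ± 1.79 CPM in VAT and 3.28 ± 1.06 CPM in spleen, may have passed mainly through such sums too, and its call is treated alike. Ccr6 was at 0.54 (edgeR adjusted p = 0.458).

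Of 7 testable genes of the interleukin 23 pathway 5 rose in VAT over spleen, where 37.8% of all genes were called, and none fell, among them Il12rb1 by 2.57, Il12rb2, which belongs to the interleukin 12 receptor, by 1.66, and Stat4 by 0.68. Il12rb1 stood at 9.88 ± 2.76 CPM in VAT and 1.48 ± 0.467 CPM in spleen, whereas Il23r itself, the specific subunit, stayed at a handful of UMIs. Il12rb2 stood at 7.19 ± 3.38 CPM in VAT and 2.02 ± 0.460 CPM in spleen. In BAT, Il12rb1 and Il12rb2 were also low, at 2.38 and 2.88 CPM. Both may have passed the filter mainly through the SAT and VAT sums, so their calls, counted among the 5, are not read as support. Of the Serpinb1a relatives, Serpinb6a rose by 1.01 and Serpinb6b by 0.86, against 4.17 for Serpinb1a, and the third one tested was not called. Of 5 testable MS4A genes 1 rose, Ms4a4b, by 0.18, against 3.34 for Tmem176b. In SAT over VAT, where 4.44% of all genes were called, 1 of 10 Th17 programme genes was called, Il21r at 0.43, and 1 of 7 interleukin 23 pathway genes, Il12rb2 at 1.25, both higher in SAT.

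Across the 16 hashed samples of Foxp3-zero cells, the genes whose log2(CPM + 1) followed Tmem176a most closely were Rbm3 (Pearson r = 0.963), Ddrgk1, Tmem176b (0.95), Prelid2 and Ltb4r1. For Tmem176b they were Cdk6 (0.957), Tmem176a, Rbm3, Rnf138 and Ltb4r1. Serpinb1a was followed most closely by 4833407H14Rik (0.943), Prdm1, Gzmk, Rnf138 and Cdk6, and its r with Tmem176a and Tmem176b was 0.912 and 0.903. These values describe 16 samples that share 4 tissues and 2 libraries, and no p-value belongs to them.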

How the data were processed

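UMI counts per gene and cell barcode were used as deposited, 1 raw matrix per library. Cell Ranger 6.1.0 made them with build mm10, per the file headers; bcl2fastq and Seurat are named in the submitters' processing notes without versions. Counts were whole and unscaled. Cells needed 500 genes, 1000 UMIs and under 10% mitochondrial UMIs. T cells had at least 1 UMI of 6 T cell genes and fewer than 2 B cell, myeloid or fibroblast genes with 2 UMIs each, and under 5% haemoglobin UMIs. No doublet caller was run; sums per hashed sample used cells with a single hashtag, in which doublets within a sample stayed, while shares given over both libraries used all gated cells, multi-sample ones included. Hashtags, matched to the labels by number, were read with a mixture model at a posterior of 0.95, checked on simulated hashtags. Raw counts were summed per hashed sample and class with at least 20 cells (10 for Tmem176 classes). Sums of Foxp3-zero cells held 1917183 to 4667906 UMIs, those of Foxp3-positive cells from 60547.

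Tests used edgeR 4.0.16 in R 4.3.3 (TMM scaling, filterByExpr with minimum count 10, quasi-likelihood, Benjamini-Hochberg over all genes, checked on simulated counts), with experiment or hashed sample as a term; DESeq2 1.42.0 served as an alternative. Shares were tested by exact sign flips (Python 3.11.15, numpy 2.4.6, scipy 1.17.1), with exact binomial 95% intervals; a count of 0 was taken to allow 3 counts. The 5 genes and all lists were chosen with earlier results of these data known. Named were the 5 genes, up to 4 called genes per list with the largest changes, the 10 highest and lowest called genes of the Tmem176 comparison that moved in 80 percent of samples, and the 5 genes most alike in pattern. Leaving out endothelial-marked cells, shares in single-hashtag cells, and the exact test on Serpinb1a were added after seeing the data. A few genes are not reported here.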

Additional observations from a re-analysis of the deposited data

Results flagged for a closer look

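In 8 of 27 groups of 4 hashed samples, 1 sample stood apart from the others by Dixon's test. Where all the others are at 0, a sample with any UMI passes this test whatever its value. That held for every flagged group except those of Serpinb1a in Foxp3-zero cells. The usual chance rate of about 1 group in 20 therefore does not apply, and whether the count of flags is an excess cannot be judged. In Foxp3-zero cells, Serpinb1a was at 4.97 CPM in BAT replicate 2, from 11 UMIs in 6 cells, against 0.759 to 1.31 CPM in the other BAT samples. In VAT replicate 3 it was at 8.99 CPM, the lowest of its group, against 11.2 to 11.5 CPM in the others. Il17a was at 0.437 CPM in BAT replicate 4 and at 0.699 CPM in VAT replicate 1, each from 1 cell, with the other samples of the group at 0. Il23r was at 0.214 CPM in spleen replicate 4, from 1 UMI, against 0 in the others.

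In Foxp3-positive cells, Serpinb1a was at 10.4 CPM in SAT replicate 4 and at 27.2 CPM in spleen replicate 1, from 3 and 5 UMIs in 2 cells each, with the other samples of each group at 0. Il23r was at 3.31 CPM in spleen replicate 2, from 1 UMI, against 0 in the other spleen samples.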

How the results depend on the processing

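Of 360 values under other settings, not counting left-out samples, 302 kept their direction, side of the threshold or size; the cause of the changes below was not tested. Between Foxp3 classes (1451 genes) the counts were 737 in experiment 1 alone, 889 in experiment 2 alone, 2184 with no filter and 485 in thinned cells. In BAT over spleen (991) they were 495, 349 and 277 for experiment 1, experiment 2 and thinned cells. Experiment 2 alone and thinned cells gave 2688 and 1711 in SAT over spleen (4366), 2061 and 1508 in VAT over spleen (3982), 1667 and 1482 in BAT over SAT (3648), and 1088 and 1204 in BAT over VAT (3248). In SAT over VAT (467) the counts were 285 with DESeq2, 115 and 190 in experiments 1 and 2, 269 with stricter hashtag calls, 789 with no filter and 165 thinned. Between Tmem176 classes (415) they were 226 with DESeq2, 245 in experiment 1, 1042 summed per library, 1514 with no filter, 708 with no T cell gate and 175 thinned.

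For the 5 genes, the calls of Tmem176a and Tmem176b in VAT over spleen, BAT over VAT and SAT over VAT kept direction and side under each setting run. In SAT over VAT, Serpinb1a was not called with DESeq2 (-0.99), experiment 1 (-1.23), experiment 2 (-0.80), stricter hashtags (-0.88), library size scaling (-0.93), endothelial-marked cells left out (-0.82), no T cell gate (-1.29) or the replicate number as a block (-0.98, adjusted p = 0.0555 by edgeR); the block changed no other call of the 3 genes. Same-numbered samples of different tissues did not deviate together (12 correlations of -0.135 to 0.0450). With 2 samples per tissue and experiment, this cannot decide whether same-numbered samples came from the same animal. In SAT over spleen calls were lost for Serpinb1a with no T cell gate (0.92) and for Tmem176a in thinned cells (0.87). In BAT over SAT they were lost for Serpinb1a in experiment 1 (-0.68) and with no gate (-1.06), and for Tmem176a in experiment 2 (-0.86) and in thinned cells (-1.17). In BAT over spleen Serpinb1a was called with stricter hashtags (2.40) and with no filter (1.82), and turned sign with no gate (-0.14), as did Tmem176b in experiment 1 (-0.063) and Tmem176a in thinned cells (-0.30), none of these called. Summed per library, Tmem176a was called between Foxp3 classes (0.56) and Tmem176b turned sign (0.11). In Foxp3-positive cells 2 of the 5 genes passed the filter in experiment 1 alone, with stricter hashtags and with no gate.

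Differences in shares, in percentage points, turned sign without ever passing the test: at 2000 UMIs for Tmem176b (-0.352) and Serpinb1a (-0.350), for Tmem176a with stricter hashtags (-0.198) and no gate (-0.231), and with a stricter gate for Tmem176b (-0.00965) and Serpinb1a (-0.0175). Serpinb1a could not be tested between Tmem176 classes with stricter hashtags, no gate, a stricter gate, thinned cells, endothelial-marked cells left out or VAT replicate 1 left out, since it failed the filter.

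Leaving out 1 hashed sample at a time gave -0.301 to 0.458 points for Tmem176a, -0.106 to 0.221 for Tmem176b and -0.415 to 0.220 for Serpinb1a between Foxp3 classes. The sign turned for Tmem176a without SAT replicate 2 or 4, for Tmem176b without SAT replicate 1, 3 or 4, VAT replicate 2 or spleen replicate 2, and for Serpinb1a without VAT replicate 2 or 4. In BAT over spleen Tmem176a ran from -0.12, without BAT replicate 3, to 0.60, and Serpinb1a from 1.05 to 2.12, the one value called, without BAT replicate 1. In SAT over VAT Serpinb1a ran from -1.14 to -0.88, and genes called from 214 to 644, with 214 without SAT replicate 1, 234 without SAT replicate 4, 243 without VAT replicate 3 and 242 without VAT replicate 4. From 0 to 2 of the genes passed the filter in Foxp3-positive cells, 2 without BAT replicate 1 or 4. Il17a and Il23r had few UMIs or none in every group, as had all 5 genes in Foxp3-positive BAT cells, and the cause was not tested.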
